A study of Mus musculus with 15 samples.

Results

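Histone lysine methyltransferases and demethylases, the enzymes that place and remove methyl groups on lysines of the histone tails, were analyzed across the gastrocnemius of Low and High frailty marked mice, sedentary or run. The 38 genes, 26 writers and 12 erasers, were a list of named chromatin enzymes matched by symbol to the Ensembl identifiers of the count table. All 38 matched 1 identifier each, out of 55450 genes counted, and all 38 passed the filter on low counts that left 16920 genes for testing. By the position each or its closest relatives are known for, the list held 11 writers of lysine 4 of histone H3 (H3K4), 4 of H3K36, 6 of H3K9, 3 of H3K27 or H3K79 and 2 further proteins with a SET domain, the catalytic fold of most methyltransferases. The counts of writers include Kmt2e, placed with the H3K4 writers as a relative of them although no methyltransferase activity is known for it, and both further SET proteins, Setd3 and Setd5. The erasers were 4 of H3K4, 6 of H3K36 or H3K9 and 2 of H3K27.

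Methylation leaves the charge of a lysine as it is and acts through the proteins that bind it. Methylation of H3K4 marks promoters and enhancers in use, that of H3K36 and H3K79 follows transcribed gene bodies, and that of H3K9 and H3K27 marks silenced chromatin. In skeletal muscle, H3K27 methylation by the Polycomb enzymes restrains muscle genes in precursor cells, and Smyd1 is a muscle-restricted SET protein needed for the assembly of the sarcomere. Many of these enzymes are large, with transcripts far longer than those of most genes, and several members also methylate proteins other than histones.

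RNA came from the gastrocnemius of C57BL/6JN mice, all female and past 17 months of age, and the labels name no transgene or mutation. Groups were Low Control (n = 4) and Low Run (n = 4), which the labels call robust and which had at most 1 positive frailty marker, and High Control (n = 3) and High Run (n = 4), which the labels call frail and which had at least 2. Run mice ran downhill on a treadmill in 2 bouts (13 m/min, decline of 22 degrees) and were collected 24 h after the last, while Control mice stayed sedentary in their cages. Frailty was scored within a single cohort and the mice were assigned to Low or High after collection, each library was 1 mouse, and the labels gave no sequencing batch.

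Total counts ranged from 19395125 to 30699216 per mouse, with a median of 25926420, and the lowest count of any member in any mouse was 16 (Suv39h2 in High Run mouse D62). The marker genes of muscle fibres (7 of 7 detected) summed to between 91665 and 152143 CPM, which are counts scaled to the normalized library size, in every mouse, so the defining transcripts of the labelled tissue were present. The fibre sum ran from 125954 to 145609 CPM in High Control and from 91665 to 116877 CPM in High Run mice, without overlap. By gene, 5 of the 7 had a negative fitted value there and 1 was lower in every mouse (3.6% of all genes). The 4 genes listed for satellite cells (Pax7, Myf5, Cdh15 and Chrna1) summed to 61.3 to 66.7 CPM and to 67.8 to 123 CPM in the same groups. Chrna1 encodes an acetylcholine receptor subunit of muscle fibres, so this sum is not specific to satellite cells. Of the 4 genes, 3 had a fitted value above 0 and 1 was higher in every mouse (3.47% of all genes). In Low mice the 3 adipocyte markers ran from 55.9 to 75.5 CPM in Control and from 36.4 to 53.9 CPM in Run muscle. The part of these cell types in the values below was not tested, and in whole muscle fewer cells of a type and less RNA per cell cannot be told apart. Libraries also differed in how expression depended on transcript length, which is described with the values by mouse.

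The 300 bases spanning the transcription start are shown for the member with the smallest p in each comparison (Kmt2a) and for the members with the highest level per length (Smyd2 and Smyd1), because the promoters of the list were not of a single kind. Sequences are from RefSeq on GRCm38.p6, read on the minus strand for all 3 genes and printed 5′ to 3′, with every CG dinucleotide in capitals. Kmt2a lies at chr9:44881240-44881539, Smyd2 at chr1:189922242-189922541 and Smyd1 at chr6:71262232-71262531, a start inside the span that GENCODE gives that gene.
Kmt2a: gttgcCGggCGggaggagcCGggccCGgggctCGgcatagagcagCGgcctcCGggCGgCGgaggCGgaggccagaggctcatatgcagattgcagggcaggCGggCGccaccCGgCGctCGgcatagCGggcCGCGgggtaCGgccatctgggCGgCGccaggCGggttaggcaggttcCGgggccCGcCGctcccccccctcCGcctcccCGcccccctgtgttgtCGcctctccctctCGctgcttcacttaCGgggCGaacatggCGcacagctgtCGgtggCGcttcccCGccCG
Smyd2: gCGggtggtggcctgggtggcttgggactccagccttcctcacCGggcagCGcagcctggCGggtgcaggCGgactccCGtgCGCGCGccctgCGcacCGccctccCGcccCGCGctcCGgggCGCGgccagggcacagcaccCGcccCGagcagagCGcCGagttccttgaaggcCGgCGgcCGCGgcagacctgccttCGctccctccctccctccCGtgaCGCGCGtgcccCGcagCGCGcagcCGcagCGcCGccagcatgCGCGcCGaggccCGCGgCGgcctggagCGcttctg
Smyd1: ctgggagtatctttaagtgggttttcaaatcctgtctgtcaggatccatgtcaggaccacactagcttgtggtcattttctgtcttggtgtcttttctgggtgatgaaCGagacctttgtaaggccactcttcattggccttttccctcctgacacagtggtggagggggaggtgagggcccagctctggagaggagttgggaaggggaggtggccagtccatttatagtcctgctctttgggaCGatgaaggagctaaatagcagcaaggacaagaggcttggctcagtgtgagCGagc

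The Kmt2a and Smyd2 windows hold 36 and 43 CG dinucleotides, the Smyd1 window 3. RefSeq windows were matched for 27 of the 38 members (36 windows), and their median was 29 CG dinucleotides, against 7 over all 32851 mouse windows. A GC box (GGGCGG, searched on both strands) was in 63.9% of the member windows and in 35.7% of all windows. The letters TATAAA, on either strand, were in 1 member window (2.78%) and in 13.6% of all windows. In that window, of Smyd1, they lie on the strand opposite to the printed one, where the printed letters read tttata, and an E-box (CANNTG, which reads alike on both strands) was in 58.3% against 72.3%. These matches are descriptions of letters and say nothing of factor binding in these muscles.

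Levels were compared between genes only per length, as RPKM, which is the CPM divided by the kilobases of summed exon. Smyd2 (127 ± 24.9 RPKM, SD, n = 15), which methylates cytosolic proteins as well as histones, and Smyd1 (118 ± 26.1) headed the list. Setd7 (28.7 ± 6.73), an H3K4 monomethyltransferase, followed, and then Setd3 (19.7 ± 2.25), which is known to methylate a histidine of actin rather than a histone. These 4 genes held 69.9% of the summed RPKM of the members, which was 419.9. Below them came a long plateau that began with Ehmt2, the H3K9 dimethyltransferase G9a (11.5 ± 1.64), and ended with the H3K4 demethylase Kdm5b (0.746 ± 0.134) and Suv39h2, which trimethylates H3K9 (0.461 ± 0.141). Among neighbours in this order, only Smyd1 and Setd7, and Setd3 and Ehmt2, had ranges over the mice that did not overlap. Genes further apart within the plateau did separate, as Ehmt2 (9.79 to 16.6 RPKM over the mice) did from Kdm5a (1.99 to 4.05).

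**Figure D1:**
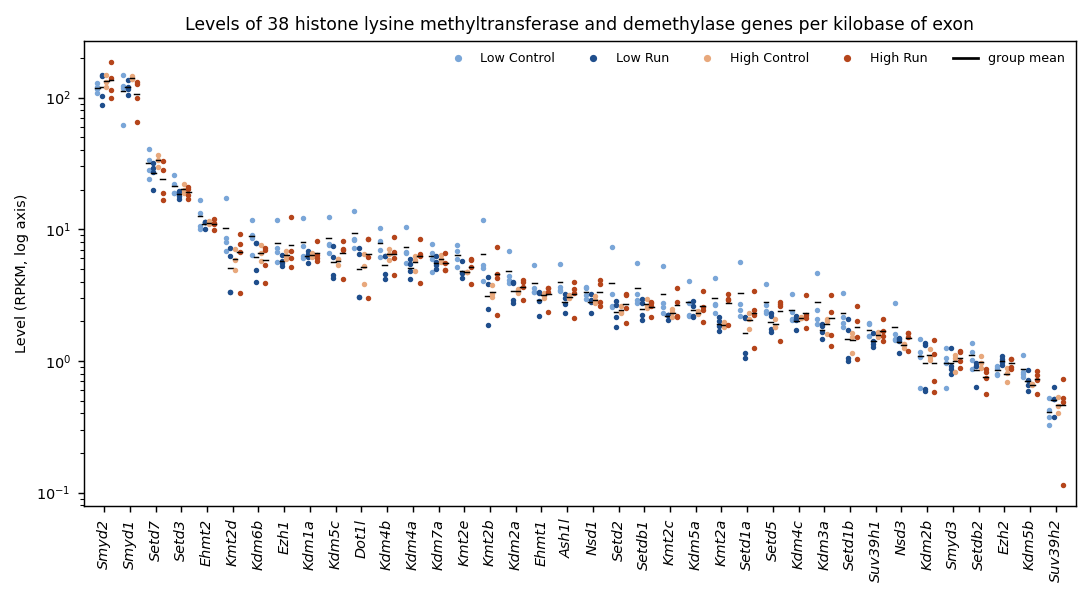
Level of each of the 38 genes in RPKM (log axis), ordered by the mean of all mice. Points are mice, coloured by group, and black bars are group means (n = 4, 4, 3 and 4 mice). Smyd2 and Smyd1 lie near 100 RPKM in all groups, most other members lie between 1 and 10 RPKM, and the groups overlap widely.

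The 2 leaders varied to a similar degree, with a coefficient of variation over the mice of 19.7% for Smyd2 and 22.1% for Smyd1. Smyd2 was 294, 316, 325 and 353 CPM in Low Control, 239, 278, 398 and 403 in Low Run, 328, 356 and 405 in High Control and 271, 309, 385 and 507 in High Run mice. All groups overlapped. Smyd1 was 281, 537, 558 and 669.8 CPM in Low Control, 477, 528, 547 and 622 in Low Run, 628, 629.7 and 659 in High Control and 297, 449, 578 and 599.9 in High Run mice. Its low values belonged to Low Control mouse D9 and High Run mouse D62, and its ratio to Smyd2 per length ran from 0.350 in D62 to 1.34 in Low Run mouse D66. At the other end, Suv39h2 was 1.43, 1.66, 1.86 and 2.32 CPM in Low Control, 1.64, 2.26, 2.26 and 2.77 in Low Run, 1.78, 1.99 and 2.35 in High Control and 0.504, 2.15, 2.30 and 3.21 in High Run mice. The low value was again that of D62. Of the Polycomb pair, Ezh1, the form that predominates in non-dividing cells, exceeded Ezh2, the form of dividing cells, in every mouse. The ratio of their RPKM was 9.45 ± 3.79 in Low Control, 5.69 ± 0.576 in Low Run, 8.15 ± 1.55 in High Control and 7.82 ± 2.95 in High Run mice (SD), from 4.84 in Low Run mouse D68 to 14.9 in D9.

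Much of the variation ran through many members at once and tracked individual mice. Taking each gene relative to its own mean over the 15 mice, the average over the 38 members was 0.23 ± 0.26 in Low Control, -0.16 ± 0.19 in Low Run, -0.06 ± 0.06 in High Control and -0.02 ± 0.24 in High Run mice (log2, SD). Low Control mouse D9 stood at 0.60, and it had the highest level of the 15 mice for 28 of the 38 members. Low Run mice D57 and D68 stood at -0.31 and -0.33 and High Run mouse D53 at -0.38. One of these 3 had the lowest level for 29 members, and for 17 members all 3 lay below all of the other 12 mice, among them Kmt2d, Setd1a, Setd1b, Dot1l, Kdm2a and Kdm6b. Writers and erasers did so alike. The mean of the writers was 0.58 and that of the erasers 0.64 in D9, and in D53 they were -0.36 and -0.42. Some members did not follow. Smyd1 and Smyd3 were lowest of all mice in D9. The values of D57, D68 and D53 all lay within the range of the other 12 mice for several members. These were Smyd1, Smyd2, Smyd3, Setd3, Setdb2, Suv39h2, Kdm5a and Kdm7a.

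**Figure D2:**
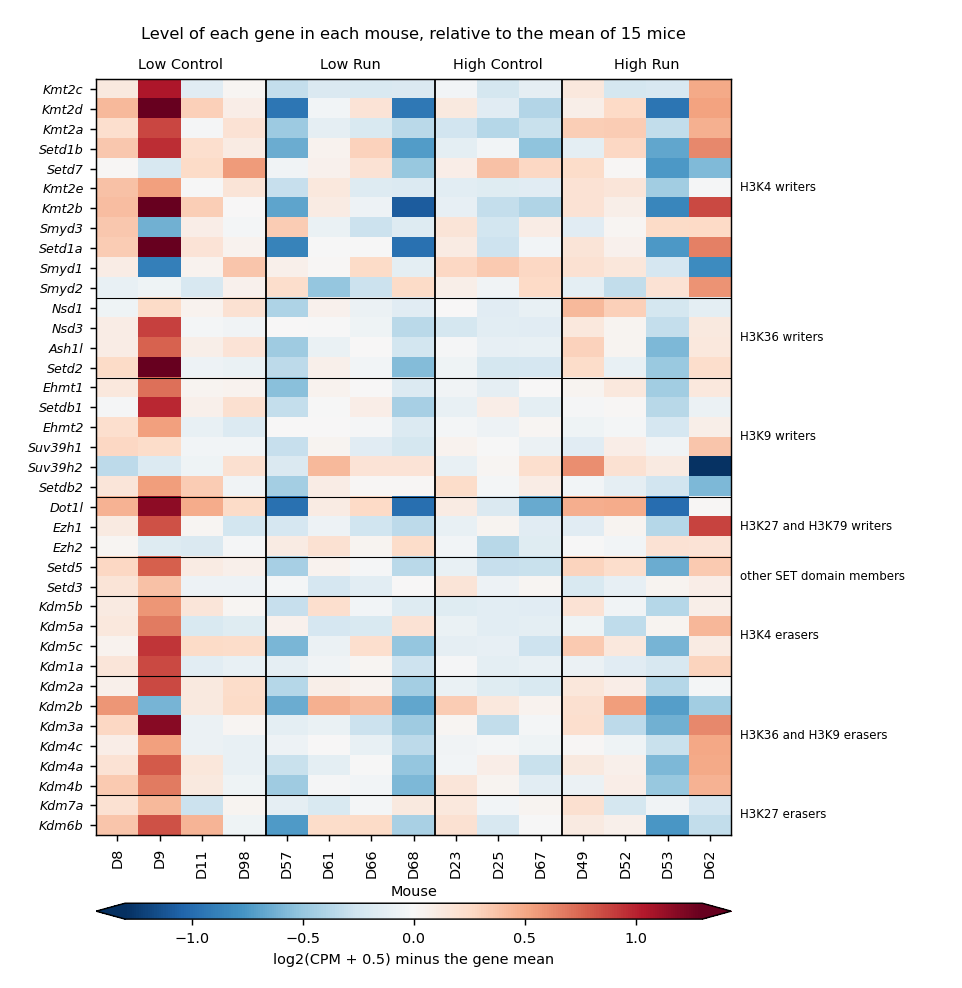
Each row is a gene, grouped by role, and each column a mouse, grouped by condition. Colour is log2(CPM + 0.5) minus the mean of the gene over 15 mice, and values past the ends of the scale take the end colour. The column of D9 is red in most rows, and those of D57, D68 and D53 are blue in most rows of long genes.

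The same mice stood apart over the whole transcriptome by transcript length. Across the 16906 tested genes with a length, which share a library and are not independent, the deviation of a gene in a mouse correlated with its exon length at a Spearman's rho of -0.378 in D57, -0.381 in D68 and -0.381 in D53, and between -0.078 and 0.337 in the other 12 mice (0.201 in D9). The members were long, with a median of 8.47 kb of exon (2.72 kb for Smyd2 to 20.3 kb for Kmt2c) against 3.83 kb over all tested genes, and 97.4% of them exceeded that median. The part of this length dependence in the values of the members was not tested directly, and the comparisons were refitted with and without those 3 mice and with offsets per mouse for exon length and GC content, as given after the comparisons.

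**Figure D3:**
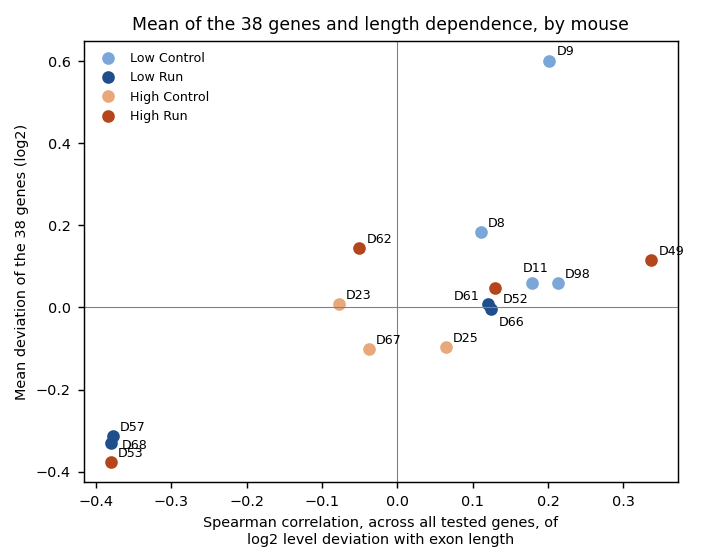
Mean log2 deviation of the 38 genes in each mouse (vertical) against the Spearman correlation, across all tested genes, of that mouse's deviations with exon length (horizontal). D57, D68 and D53 lie apart at the lower left, and D9 lies highest, at a correlation like that of Low Control mice D11 and D98.

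The first comparison asked how running changed the muscle of Low frailty marked mice. Between Low Run and Low Control mice no member was called at a false discovery rate (FDR) of 0.1 by edgeR's quasi-likelihood test with Benjamini-Hochberg adjustment, and neither was any of the 16920 genes (0%). DESeq2 and voom called 0 members as well. The fitted values nonetheless pointed one way. They were negative for 34 of the 38 members and above 0 for 4, where 51.9% of all genes were above 0, and the median of the members was -0.41 (log2) against 0.02 for all genes. At an unadjusted p under 0.05, 19 members were lower in Low Run mice, against a background of 7.52% of all genes, and 0 were higher (background 5.92%). The 19 were 13 of the 26 writers and 6 of the 12 erasers, 7 of them among the 11 H3K4 writers and 4 among the 6 erasers of H3K36 or H3K9. That count rested on individual mice. It was 1 without Low Control mouse D9, 8 without Low Run mouse D57 and 8 without D68, and 4 under voom with weights for library quality. Beside it, 3 of 3 markers of T and B cells were higher at an unadjusted p under 0.05 in Low Run mice (median 3.52, log2). So were 2 of 5 macrophage markers (median 0.35). The T and B cell sums were only 0.124 to 0.840 CPM in Low Control and 0.752 to 12.9 CPM in Low Run mice. Mouse D61 held the 12.9 CPM, and the Low Run median was 1.49 CPM. The part of these markers was not tested.

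Kmt2a, which encodes the H3K4 methyltransferase MLL1 of the trithorax family, had the smallest p of the members. It was 38.6, 44.4, 45.3 and 71.4 CPM in Low Control and 28.0, 30.4, 33.8 and 35.7 CPM in Low Run mice. Every Run mouse lay below every Control mouse. The log2 fold change was -0.64 ± 0.19 (SE), with an unadjusted p of 0.00438 and an FDR of 0.358 in edgeR, and it was -0.43 without D9, whose value was the highest. Lower in every Low Run mouse than in any Low Control mouse were 6 members, Kmt2a, Setd1a, Ash1l, Kmt2c, Setd5 and Kdm3a, beside 3.59% of all genes, and 1 was higher in every mouse, Ezh2 (background 3.35%).

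Setd1a, the catalytic subunit of a COMPASS complex that trimethylates H3K4, was 15.0, 16.5, 18.4 and 38.4 CPM in Low Control and 7.17, 7.73, 14.5 and 14.5 CPM in Low Run mice (log2 fold change -1.01 ± 0.34, unadjusted p of 0.00949, FDR 0.358 in edgeR). Its 2 lowest Run values were D68 and D57 and its highest Control value was D9. Of its exon bases, 51.8% also belong to the annotated gene Gm49388 on the same strand, so its counts are uncertain. Kmt2d, the H3K4 monomethyltransferase of enhancers, was 135, 158, 171 and 343 CPM against 66.3, 66.9, 125 and 144 CPM (-1.01 ± 0.35). Kmt2b, its relative that acts at promoters, was 38.9, 48.4, 51.3 and 112 CPM against 17.995, 23.9, 36.9 and 41.5 CPM (-1.06 ± 0.37). For both genes the groups overlapped at their edges, and 2 Run mice, D57 and D68, made up the low end. Without D9 the fold changes were smaller in size, at -0.61 for Setd1a and -0.63 for both Kmt2d and Kmt2b.

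Among the erasers, Kdm2a, an H3K36 demethylase that binds CpG islands, was 56.8, 59.0, 63.8 and 98.6 CPM in Low Control and 39.6, 41.6, 56.0 and 57.2 CPM in Low Run mice (-0.52 ± 0.19). Kdm4b, which removes trimethylation from H3K9, was 30.0, 34.1, 39.6 and 50.05 CPM against 20.6, 22.5, 30.4 and 30.8 CPM (-0.56 ± 0.21). The upper Run values of both crossed the lowest Control value, and D68 and D57 were lowest in both. Without D9, Kdm2a was -0.31. All 12 erasers had a negative fitted value, from -0.69 for Kdm3a to -0.16 for Kdm2b. The writers with a fitted value above 0 were Smyd1 (0.09), Smyd2 (0.03), Suv39h2 (0.30) and Ezh2 (0.25).

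**Figure D4:**
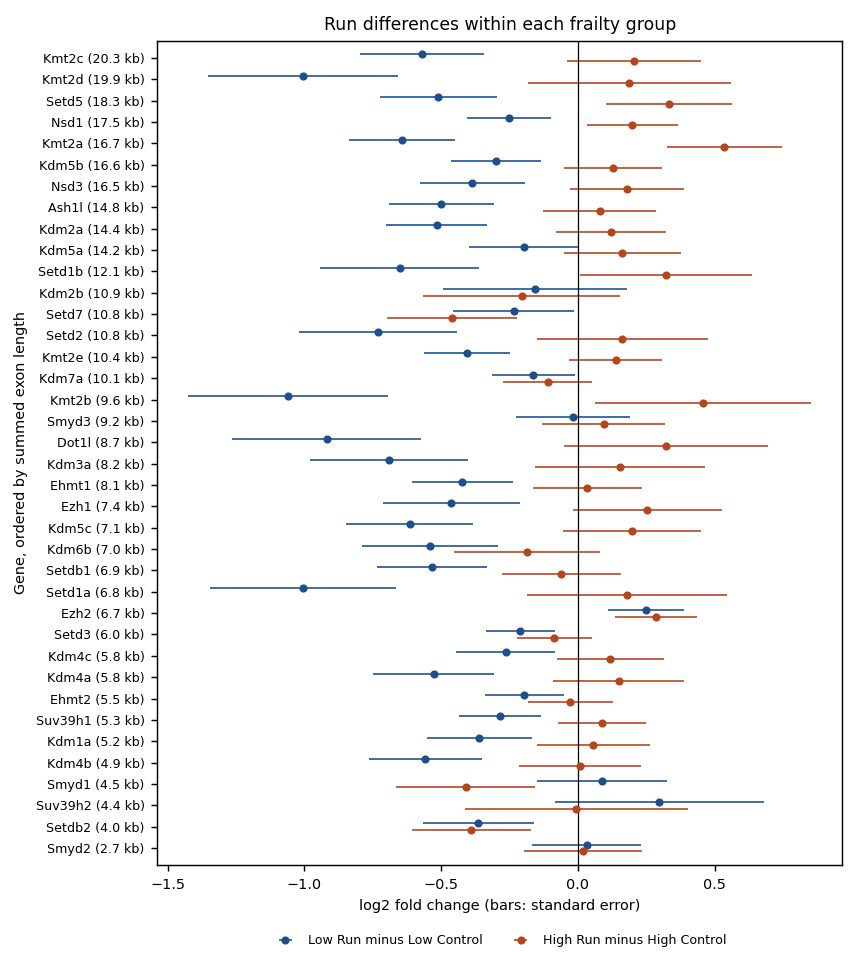
Fitted log2 fold change of each gene with its standard error, for Low Run minus Low Control (blue) and High Run minus High Control (orange), with genes ordered by summed exon length from short (bottom) to long (top). Blue points lie left of 0 for 34 of 38 genes and orange points right of 0 for 28.

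In High frailty marked mice the fitted values of the run comparison mostly had the other sign and were small. They were above 0 for 28 members and negative for 10, with a median of 0.12 against 0.05 for all genes, of which 57.2% were above 0. No member was called by edgeR (0% of all genes), and 1 was higher at an unadjusted p under 0.05 (background 3.28%) and 0 lower (background 1.9%). DESeq2 called 0 members and voom 1. The share of all genes that voom called was not counted. The paper, with DESeq2 at the same threshold, reports genes called in this comparison, among them Ifi47 and Fosb. The member under p of 0.05 in edgeR and the member called by voom were both Kmt2a. It was 29.9, 31.6 and 32.7 CPM in High Control and 31.1, 48.7, 48.9 and 53.6 CPM in High Run mice. In all, 3 Run mice lay above all Control mice and D53 lay among them. The log2 fold change was 0.54 ± 0.21 with unadjusted p of 0.0217 and an FDR of 0.956 in edgeR, and 0.58 with an FDR of 0.0959 in voom. The median of the members was -0.02, with 17 above 0, without High Run mouse D62, and the count at p under 0.05 was 0 without D62 or D25 and 2 without D53. In the same comparison 3 of 3 erythroid markers (median 2.13) and 3 of 5 macrophage markers (median 0.88) were higher at an unadjusted p under 0.05, and their part was not tested.

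The next smallest p belonged to Setd7, Ezh2, Setdb2 and Smyd1. Setd7 was 321, 365 and 394 CPM in High Control and 180.2, 203, 304 and 357 CPM in High Run mice (-0.46 ± 0.24, unadjusted p of 0.0701, FDR 0.956 in edgeR), with D53 and D62 lowest. Smyd1, whose values are given above, had a fold change of -0.41 ± 0.25, or -0.24 without D62, and every Run mouse lay below every Control mouse. Setdb2, an H3K9 methyltransferase, was 3.58, 3.93 and 4.40 CPM in High Control and 2.27, 2.99, 3.34 and 3.54 CPM in High Run mice (-0.39 ± 0.22), likewise without overlap. Smyd1 and Setdb2 were the only 2 members lower in every mouse, beside 3.6% of all genes, and 0 were higher in every mouse (background 3.47%). The sum of the 7 fibre markers was lower in every High Run mouse too, as given above, while 2 of the 7 had a fitted value above 0. Their part in the Smyd1 value was not tested.

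Ezh2, the catalytic subunit of Polycomb repressive complex 2, had a fitted value above 0 in both run comparisons. It was 5.22, 5.30, 5.94 and 6.12 CPM in Low Control and 6.18, 6.52, 6.95 and 7.22 CPM in Low Run mice. In High mice it was 4.58, 5.36 and 5.87 CPM in Control and 5.84, 6.01, 6.897 and 6.916 CPM in Run muscle. The Low groups did not overlap, and in High mice 1 Run value lay just under the highest Control value. The fold changes were 0.25 ± 0.14 and 0.28 ± 0.15, the interaction was 0.03, and none was called. The 4 markers of dividing cells, in which this gene is known to be most used, summed to between 0.608 and 1.99 CPM in Low Control, 1.26 and 9.04 in Low Run, 0.814 and 1.37 in High Control and 1.17 and 4.47 in High Run mice. Their part in the Ezh2 values was not tested.

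The Frailty × Run interaction asked whether the run difference of High mice exceeded that of Low mice. It is built from both run comparisons above and from the same mice, D9 among them, so it is not independent of them. It was positive for 32 members and negative for 6, with a median of 0.47 against 0.03 for all genes, of which 53.1% were positive. No member was called by edgeR, DESeq2 or voom (0% of all genes in edgeR). At an unadjusted p under 0.05, 11 members were higher (background 5.24%) and 0 lower (background 2.69%) in edgeR, 12 in DESeq2 and 10 in voom. Of the 11, 7 were H3K4 writers, Kmt2a, Kmt2b, Kmt2c, Kmt2d, Kmt2e, Setd1a and Setd1b, which is every H3K4 writer on the list other than Setd7 and the SMYD genes. The others were Dot1l, Setd5, Kdm5c and Kdm2a. With the offsets for length and GC content given below, Kmt2c, Kmt2e and Kdm2a were not under 0.05. By sign alone, 26 members (68.4%) were negative in the Low and positive in the High comparison, as were 28.8% of all genes. The count at p under 0.05 fell to 3 without D9, D57 or D67, to 4 without D68 and to 6 without D25, D49 or D52, and it was 17 without D98 and 21 without D53. Markers of other cells moved with the interaction too, as 3 of 3 erythroid markers (median 3.31) and 2 of 3 Schwann cell markers (median 0.97) were higher at an unadjusted p under 0.05. Erythroid markers summed to 459.6 to 2205 CPM in Low Control, 227 to 760.3 in Low Run, 287 to 457 in High Control and 355 to 3549 in High Run mice, and their part was not tested.

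Kmt2a had the smallest p, with an interaction of 1.18 ± 0.29 (log2, SE, unadjusted p of 0.00083, FDR 0.600 in edgeR). Across the 23 alternatives that gave a value, its interaction ran from 0.84 to 1.32 and its unadjusted p from 4.66e-05 to 0.00304, while its FDR stayed between 0.147 and 0.918. Per mouse, 3 of the 4 High Run values and all 4 Low Control values lay above all Low Run and High Control values. The exception was High Run mouse D53. Kmt2b had the largest interaction, 1.52 ± 0.54 (unadjusted p of 0.0128, FDR 0.600 in edgeR), which was 1.08 without D9. Its High values were 29.4, 31.1 and 35.9 CPM in Control and 21.3, 40.8, 44.0 and 70.7 CPM in Run mice, so that D53 lay lowest and D62 highest.

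Setd5, a SET protein whose activity on histones is disputed, was 42.5, 43.9, 49.04 and 70.4 CPM in Low Control and 30.1, 31.9, 40.4 and 42.1 CPM in Low Run mice, without overlap. In High mice it was 33.0, 33.4 and 38.1 CPM in Control and 25.9, 47.9, 49.8 and 51.7 CPM in Run muscle, above all Controls apart from D53 (interaction 0.84 ± 0.31). Dot1l, the H3K79 methyltransferase, was 62.5, 72.0, 73.8 and 119 CPM against 26.5, 26.5, 56.8 and 63.0 CPM in Low mice. In High mice it was 33.2, 46.0 and 56.5 CPM against 26.3, 53.2, 73.0 and 73.6 CPM (interaction 1.24 ± 0.51). The lowest values of this gene, near 26 CPM, were those of D53, D57 and D68 in both frailty groups.

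Kdm5c, an X-linked H3K4 demethylase, was 47.2, 54.1, 54.7 and 87.9 CPM in Low Control and 30.2, 32.1, 43.4 and 53.5 CPM in Low Run mice. In High mice it was 37.9, 42.2 and 42.5 CPM in Control and 29.9, 49.3, 50.3 and 58.0 CPM in Run muscle (interaction 0.81 ± 0.34). Setd1a in High mice was 12.0, 14.2 and 15.7 CPM in Control and 8.49, 15.1, 16.4 and 23.1 CPM in Run muscle (interaction 1.19 ± 0.50, or 0.78 without D9). The High Run mice other than D53 lay above all High Controls for Kdm5c, while D52 lay inside the Control range for Setd1a. Role groups without a member at p under 0.05 were the writers of H3K36 and of H3K9 and the erasers of H3K27, with medians of 0.57, 0.27 and 0.20.

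The comparison of sedentary mice asked how the enzymes differed with frailty in mice without the downhill bouts. Between High Control and Low Control mice the fitted values were negative for 32 members and above 0 for 6, with a median of -0.36 against -0.02 for all genes, of which 47.2% were above 0. No member was called by edgeR, DESeq2 or voom (0% of all genes in edgeR), and 11 were lower at an unadjusted p under 0.05 (background 4.06%) and 0 higher (background 1.8%). Lower in every High Control than in any Low Control mouse were 12 members, beside 5.27% of all genes, and 0 were higher in every mouse (background 5.13%). The correlation of deviations with exon length was between 0.111 and 0.212 in the Low Control mice and -0.078, -0.038 and 0.064 in the High Control mice, and its part was not tested. The 3 erythroid markers were lower as well (3 of 3 at an unadjusted p under 0.05, median -1.51). The 6 with the smallest p were Kmt2a (-0.67 ± 0.21, unadjusted p of 0.00615, FDR 0.704 in edgeR), Kmt2e (-0.44 ± 0.17), Kdm2a (-0.51 ± 0.20), Setd5 (-0.56 ± 0.23), Kmt2b (-0.96 ± 0.40) and Kdm5c (-0.58 ± 0.25), and all 6 were without overlap. Kmt2e averaged 66.7 ± 11.0 CPM in Low Control and 49.3 ± 0.266 CPM in High Control mice (SD). The count at p under 0.05 was 1 without D9, D25 or D67 and 6 without D23, and the values without D9 were -0.45 for Kmt2a, -0.53 for Kmt2b, -0.30 for Kdm2a and -0.35 for Kdm5c. This comparison and the Low run comparison share the 4 Low Control mice, D9 among them, so their values for a gene are not independent.

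High Run compared to Low Run mice gave a median of 0.15 against 0.01 for all genes, with 29 members above 0 (52.2% of all genes) and 9 negative. Kmt2a (0.51 ± 0.19, unadjusted p of 0.0177, FDR 0.999 in edgeR) was the 1 member higher at an unadjusted p under 0.05 (background 1.52%), 0 were lower (background 0.987%), and no member was without overlap (background 0.721% higher and 0.774% lower). The next in p were the H3K36 dimethyltransferase Nsd1 (0.26 ± 0.15), Suv39h1 (0.24 ± 0.15), Ezh1 (0.40 ± 0.25), Setd1a (0.52 ± 0.34) and Kmt2b (0.55 ± 0.36). Each of these 5 rested in part on 1 mouse. Without D62 they were 0.12 for Suv39h1, 0.06 for Ezh1, 0.27 for Setd1a and 0.23 for Kmt2b, and Nsd1 was 0.13 without D49. No member was called by edgeR, DESeq2 or voom, and the count at p under 0.05 was 8 without D53 and 0 without D62 or D57. Beside this, 3 of 3 Schwann cell markers (median 0.83) and 3 of 3 erythroid markers (median 1.76) were higher at an unadjusted p under 0.05. Of the 3 markers of T and B cells, 2 were lower (median -1.72). The part of these markers was not tested. In the test of any difference among the 4 groups no member was called either (0% of all genes), and Kmt2a (unadjusted p of 0.00678), Kmt2b (unadjusted p of 0.0397) and Kdm2a (unadjusted p of 0.0416) were the 3 members under 0.05, against a background of 6.21%, with an FDR of 0.758 in edgeR. Kmt2d, Kmt2e and Setd1a followed with p from 0.0518 to 0.0571.

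Length was then considered within each comparison. Over all genes the Low run comparison changed steadily with exon length, from a median of 0.18 for genes under 2 kb to -0.22 for the 382 genes over 15 kb, and the interaction from -0.10 to 0.28. The comparison of the Control groups did so too, from 0.07 to -0.17. In each length class over 4 kb the median of the members was below that of all genes in the Low comparison and above it in the interaction. The 7 members over 15 kb had a median of -0.51 in the Low comparison and 0.78 in the interaction, and the 5 between 8 and 10 kb had -0.69 against -0.16 for the 1156 genes of that length. In the High comparison all 7 members over 15 kb were above 0, with a median of 0.20, where the median of genes of that length was 0.09. Across genes, which are not independent, the Spearman correlation of fold change with exon length was -0.33 over the 38 members and -0.31 over all genes in the Low comparison, and 0.51 and -0.03 in the High comparison. It was -0.50 and -0.20 between the Control groups. With GC content of the longest transcript, the correlation was -0.43 over the members and 0.04 over all genes in the Low comparison. It was 0.15 and 0.04 in the High comparison and 0.37 and -0.01 in the interaction. Between the Control groups it was -0.33 and 0.00, and between the Run groups 0.40 and -0.01. The part of GC content alone was not tested.

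**Figure D5:**
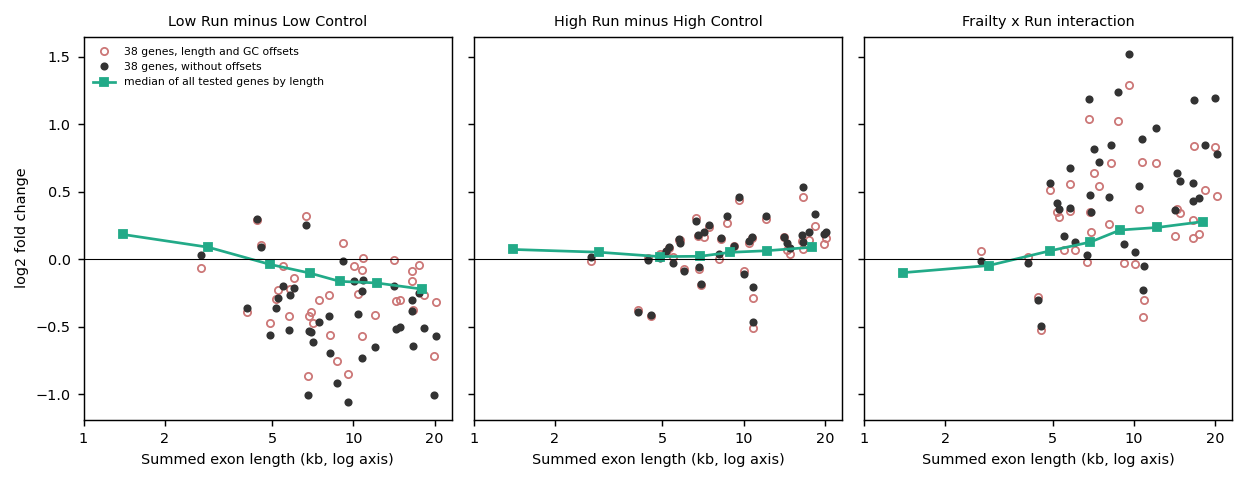
Fitted log2 fold change against summed exon length (log axis) in both run comparisons and their interaction. Filled points are the 38 genes, open points the same genes fitted with offsets for length and GC content, and green squares the median of all tested genes in 7 length classes. In the Low panel the squares run from 0.18 down to -0.22 and most points lie under them.

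With offsets per mouse for length and GC content, the median of the members in the Low comparison was -0.28, 33 of the 38 were negative, and 12 were lower at an unadjusted p under 0.05 and 1 higher, beside 1002 lower and 909 higher of all 16920 genes. In the interaction 31 were positive with a median of 0.34 and 8 were higher at p under 0.05, beside 810 of all genes. Kmt2c (unadjusted p of 0.142 in edgeR), Kmt2e (0.0628) and Kdm2a (0.0775) were not among the 8. In High Control compared to Low Control mice 32 were negative with a median of -0.25. In the High comparison 1 member was higher at p under 0.05, Kmt2a, and 1 lower, Setd7 (-0.51), beside 610 and 397 of all genes. The offsets did not remove all dependence on length among the members. The correlation of fold change with exon length was -0.09 in the Low and 0.37 in the High comparison. It was 0.27 in the interaction and -0.36 between the Control groups. Kmt2a was -0.38 ± 0.15 in Low mice, 0.46 ± 0.16 in High mice and 0.84 ± 0.22 in the interaction (unadjusted p of 0.00183, FDR 0.628 in edgeR). Without mice D57, D68 and D53, a choice made after seeing the data, the medians were -0.30 in the Low and 0.23 in the High comparison and 0.45 in the interaction, with 34 members negative, 29 positive and 33 positive. D61 and D66 were the only Low Run mice left, which limits what that fit can detect in the Low comparison. In that fit 1 member was lower at p under 0.05 in the Low comparison (2.11% of genes lower). In the High comparison 3 were higher (4.12%), and in the interaction 8 were higher (4.79%). In High Control compared to Low Control mice 15 were lower (4.77%), and no member was called.

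Genes around these enzymes were read from 3 further lists, none of whose members was called by edgeR in any comparison (0% of all genes). Of 26 other enzymes of both families, 23 were tested, with a median of -0.22 in the Low comparison, where 5 were lower at an unadjusted p under 0.05, and 0.31 in the interaction, where 3 were higher and 1 lower. The shares of all genes were 7.52% lower in the Low comparison, and 5.24% higher and 2.69% lower in the interaction. The H3K9 demethylase Kdm3b averaged 50.9 CPM in Low Control, 30.5 in Low Run, 33.4 in High Control and 39.1 in High Run mice (-0.74 ± 0.20 in the Low comparison, interaction 0.97 ± 0.30). Phf8 (-0.62 and 0.86) had the same signs, Prdm2 was -0.53 in the Low comparison and Mecom 0.48 in the interaction. In the High comparison the H4K20 methyltransferase Kmt5a was -0.69 ± 0.27, Setmar -0.54 and Riox1 0.39. Of 33 partners in the enzymes' complexes, 32 were tested, with a median of -0.12 in the Low comparison (6 lower, 0 higher) and 0.20 in the interaction (4 higher, 0 lower), against the same shares of all genes.

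Among those partners Mllt10, a cofactor of Dot1l, averaged 49.2 CPM in Low Control and 25.0 in Low Run mice, and 25.6 in High Control and 32.3 in High Run mice (-0.98 ± 0.36 in the Low comparison, interaction 1.32 ± 0.54). Ncoa6, a subunit of the Kmt2c and Kmt2d complexes, was -0.49 and 0.73, and Bcor, which works with Kdm2b, was -0.65 in the Low comparison. Atf7ip, a partner of Setdb1, was 0.29 in the High comparison and 0.60 in the interaction, beside Pcgf1 (0.40) and Jarid2 (-0.43) in the High comparison. The 11 genes of methyl donor supply had a median of -0.01 in the Low comparison and 0.00 in the interaction. Methionine synthase Mtr was -0.53 ± 0.17 in the Low comparison and 0.54 in the interaction, and Shmt2 was 0.19 in Low mice. In the High comparison Amd1, which draws on S-adenosylmethionine for polyamine synthesis, was -0.85 ± 0.30, the S-adenosylmethionine synthetase Mat2a -0.53 ± 0.25 and Nnmt 0.45, with interactions of -0.74 for Amd1 and -0.63 for Mat2a.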

How the data were processed

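RNA sequencing of gastrocnemius from 15 mice was used. The authors used STAR 2.7.9a with the mm10 genome, and featureCounts assigned proper pairs with a unique alignment to non-mitochondrial Ensembl genes, strand considered. The submitters' processing notes name Subread 2.0.3, and the paper names another version. The deposited count values are whole numbers without normalization. The deposited variance-stabilized table was not used here, and 0 columns of other samples were present.

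Tests were run on the counts with edgeR 4.0.16 under R 4.3.3 (filterByExpr, TMM, 1 mean per group, all 15 mice, quasi-likelihood F-test, Benjamini-Hochberg FDR of 0.1 over 16920 genes). Fold changes are log2 of fitted group means, and CPM use TMM library sizes. Summed exon lengths were taken from the GRCm38 annotation GENCODE M21, which gave a symbol for 55190 of 55450 counted genes. Differences of a mouse from the mean of a gene are on log2(CPM + 0.5). The members and lists were chosen with earlier results of these data known. Each member could be named, in each comparison the up to 6 with the smallest p, and from the other lists the 3 with the smallest p in each run comparison and the interaction, of which 1 gene is not reported here. The fit was tested on simulated data with 200 changed genes. Nothing in the sources used here says whether the mice shared litters or extraction days.

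Alternatives were RLE and upper-quartile normalization, DESeq2 1.42.0, limma 3.58.1 voom with quality weights, no filter, at least 10 counts in every mouse, only the groups compared, loess offsets (span 0.3) for length and GC content, an FDR of 0.05, level by longest transcript, and each mouse left out. The biological coefficient of variation over all genes was 0.266.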

Additional observations from a re-analysis of the deposited data

Results flagged for a closer look

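In the groups of 4 mice, 120 sets of values were screened for a mouse far from the other 3 by Dixon's ratio, and 12 were marked, all levels of members in CPM. Chance marks about 1 set in 20 where sets are independent, and these sets share the same mice and are not. Low Control mouse D9 was the high value in 8 of them. It had 112.1 CPM of Kmt2b (others 38.9 to 51.3), 107.3 of Kmt2c (46.5 to 56.1), 38.4 of Setd1a (15.0 to 18.4) and 78.7 of Setd2 (27.4 to 34.8). It also had 45.8 CPM of Nsd3 (23.6 to 26.2), 81.4 of Ash1l (50.1 to 54.0), 43.7 of Ehmt1 (27.1 to 29.1) and 98.6 of Kdm2a (56.8 to 63.8). The low values were those of the mice whose levels went down with transcript length. They were Low Run mouse D57 for Kmt2c (41.4 CPM, others 44.9 to 45.2) and Setdb2 (2.56, others 3.71 to 3.93), Low Run mouse D68 for Ehmt2 (55.3, others 61.8 to 62.8) and High Run mouse D53 for Setd5 (25.9, others 47.9 to 51.7). The 3 High Control mice were too few to screen.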

How the results depend on the processing

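No paired analysis was possible because mouse numbers are unique to each mouse. No member was called in any comparison under any alternative, with the exception that voom with quality weights called 1 member, Kmt2a, between High Run and High Control mice. The share of all genes called under voom was not counted. Leaving out each mouse in turn, the median log2 fold change of the members ran from -0.51 to -0.25 in the Low comparison, from -0.02 to 0.23 in the High comparison, from 0.31 to 0.57 in the interaction, from -0.44 to -0.15 between the Control groups and from 0.08 to 0.25 between the Run groups. The only change of sign was without High Run mouse D62 (-0.0168), and the cause was not tested. Of the fold changes named per gene, 713 under alternatives kept their direction and side of the threshold, 1 passed it and 0 changed direction. These genes were picked by the smallest p in each comparison of the same data, and edgeR called no gene in the main fit. Keeping direction and side was therefore likely in advance, and the count is no measure of stability.

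Counts at an unadjusted p under 0.05 moved more. Members lower in the Low comparison, 19 above, were 12 with length and GC offsets, 4 under voom and 1 without mice D57, D68 and D53. The last of these fits kept D61 and D66 alone of the Low Run mice, and the median of the members there was -0.30. The interaction count of 11 was 16 without a filter on low counts. In the High comparison the count of higher members, 1 above, was 4 under voom and 3 without D57, D68 and D53. Levels of Smyd2, Smyd1 and Kdm5b per longest transcript were 202, 160 and 1.42 RPKM. Suv39h2 had 16 to 78 counts and a coefficient of variation over the mice of 30.6%. That of Kmt2b, at 359 to 2709 counts, was 54.0%. The 3 or 4 mice per group limit every comparison.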

Other observations

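Of 5 RNAs known to stay in the nucleus, none was called. Malat1 averaged 1132 CPM in Low Control, 1536 in Low Run, 1034 in High Control and 1502 in High Run mice, a log2 fold change of 0.44 ± 0.23 (unadjusted p of 0.0786, FDR 0.397 in edgeR) in the Low and 0.54 ± 0.25 (unadjusted p of 0.0508, FDR 0.956 in edgeR) in the High comparison. Meg3, with 18.1 kb of exon, was 0.40 in the Low and -0.25 in the High comparison. Xist was -0.13 and 0.21, Neat1 0.03 and 0.05, and Kcnq1ot1 0.00 and 0.12. Fitted values were above 0 for 4 of these 5 in each run comparison.

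Cell type marker sums also singled out libraries. The 3 neutrophil markers summed to 322 CPM in Low Run mouse D68 and to at most 46.8 CPM in the other 14 mice. The 3 erythroid markers summed to 3549 CPM in High Run mouse D53 and 2205 CPM in Low Control mouse D11, and the 3 markers of T and B cells to 12.9 CPM in Low Run mouse D61. In High Run mouse D62, the mouse with the lowest fibre sum, the 3 Schwann cell markers summed to 277 CPM. The 4 genes listed for satellite cells, Chrna1 among them, summed to 123 CPM in that mouse. The 4 endothelial markers summed to 156 CPM in D57 and 163 CPM in D53, the lowest of the 15 mice, and to 199 CPM in D68. The 5 macrophage markers ran from 33.4 to 50.1 CPM in High Control and from 49.4 to 104 CPM in High Run mice, and the 4 fibroblast markers from 541 to 1175 CPM over all mice.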
